A study of Mus musculus with 2 samples.

Results

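Sprr1a, Crct1, Ivl, Ly6d, Ly6k, Emp1 and Wincr1, 7 of the 31053 mouse gene rows in the single-cell count table, were followed in hepatocytes that carried different amounts of an NRAS transgene. They were taken by symbol, and they had been chosen by the rise of their levels with the Nras UMIs of these same cells, so every difference along Nras that follows for these 7 genes is a description and carries no test. A barcode was counted as a hepatocyte when Alb, Apoa1, Apoa2, Ttr and Fgb together made up 1% or more of its gene UMIs (unique molecular identifiers, 1 for each captured RNA molecule). This gate kept 8510 of the 10220 barcodes that passed the quality filters.

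Stratified epithelia such as the epidermis build a cornified envelope in their outermost cells. Precursor proteins made from the epidermal differentiation complex, a gene cluster that mouse carries on chromosome 3, are cross-linked by transglutaminases under the plasma membrane, while Ly6 family proteins, tetraspan membrane proteins and keratins mark or shape the same cells. Hepatocytes form a simple epithelium and are not known for making such an envelope. RAS signals through RAF, MEK and ERK, which raise the activity of AP-1, a dimer of FOS and JUN family proteins that is also known to drive squamous genes.

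The cells came from BL6 mice, injected at 6 to 8 weeks of age through the tail vein under hydrodynamic pressure with a transposon carrying mVenus and NRAS under the strong CAGGS promoter, together with a transposase plasmid. Such injection reaches a share of hepatocytes only, each with its own dose. On day 6 livers were dissociated, the cells of each mouse were stained with 1 hashtag antibody, mVenus-positive cells were sorted, and the 3 mice were pooled into 1 run, read as a gene library and a hashtag library. In 2 mice the construct held the oncogenic G12V change, and in the other it held G12V with D38A, an effector-loop change that stops the protein from signalling downstream. The deposited pairing table gives hashtag 1 to the D38A mouse and hashtags 2 and 3 to the G12V mice, whereas the methods of the study give hashtags 1 and 2 to G12V and hashtag 3 to D38A. Mice are therefore named by their hashtag, and because 1 construct had 1 mouse, no test was made between constructs. All 3 carried a construct, and no uninjected liver was analysed here.

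Promoter sequence shows one feature that several of the 7 genes share and that the choice of genes did not use. RefSeq promoter windows on GRCm38.p6, 250 bases before the annotated start, were found for Sprr1a, Ivl, Emp1 and Wincr1, with 2 windows for Emp1. The letters TGANTCA, the palindromic AP-1 motif, were searched in these windows and appeared in the windows of Sprr1a and Ivl and in the first window of Emp1, but not in the second Emp1 window or in that of Wincr1. The motif reads the same on both strands, and 6.75% of 32817 mouse promoter windows held it at least once. The following stretches carry the matches, written 5′ to 3′ along the gene's own strand with the motif in capitals.
Sprr1a, minus strand, chr3:92485902-92486131: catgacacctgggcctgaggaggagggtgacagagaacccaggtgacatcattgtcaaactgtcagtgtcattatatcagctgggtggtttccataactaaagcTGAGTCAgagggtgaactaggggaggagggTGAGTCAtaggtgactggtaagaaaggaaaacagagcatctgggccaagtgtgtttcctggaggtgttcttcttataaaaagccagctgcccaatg
Ivl, minus strand, chr3:92573756-92573985: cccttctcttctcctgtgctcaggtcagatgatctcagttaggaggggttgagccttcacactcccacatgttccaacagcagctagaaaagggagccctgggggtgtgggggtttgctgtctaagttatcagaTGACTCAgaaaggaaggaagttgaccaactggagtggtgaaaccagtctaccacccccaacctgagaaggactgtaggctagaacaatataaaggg
Emp1, plus strand, chr6:135362776-135362802: tctgtgtgtcTGAGTCAgagggagcta
Emp1, plus strand, chr6:135362896-135362922: aaatccagacTGATTCAtagaaactcc

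In Sprr1a the 2 copies covered bases -146 to -140 and -116 to -110 before the RefSeq start, and in Ivl the single copy also covered bases -116 to -110. The GENCODE model of Sprr1a begins earlier on its strand, at base 92485895 of chromosome 3, inside its 250-base window. The Sprr1a positions, and their match with Ivl, therefore hold for the RefSeq start only. The 2 Emp1 copies covered bases -145 to -139 and -25 to -19 before the RefSeq start of that window. The GENCODE model of Emp1, on the same strand, begins earlier, at base 135362545 of chromosome 6. Both copies therefore lie inside that model, and their place before the start holds for the RefSeq start only. The letters TATAAA, the core of a TATA box searched on both strands, ended 38 bases before the RefSeq start of Sprr1a and 24 bases before that of Ivl. This motif was held by 12.4% of the windows. A match of letters is a description of the window and not a bound site.

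The 7 genes lie in 4 places of the genome (GRCm38, GENCODE gene models). Sprr1a (ENSMUSG00000050359, chromosome 3, 92483952 to 92485895, minus strand) encodes a small proline-rich envelope precursor. Ivl (ENSMUSG00000049128, 92570902 to 92573735, minus strand), which encodes involucrin, an early scaffold of the envelope, starts 85.007 kb beyond it. Crct1 (ENSMUSG00000027913, 93014205 to 93015687, minus strand) encodes a small cysteine-rich protein of the same complex and lies 440.47 kb beyond Ivl. Ly6d (ENSMUSG00000034634, chromosome 15, 74762056 to 74763620, minus strand) and Ly6k (ENSMUSG00000044678, 74796874 to 74799986, minus strand) are 33.254 kb apart and encode surface proteins held by a lipid anchor. Ly6d is known as a marker of keratinocytes and of early B-lineage cells. Emp1 (ENSMUSG00000030208, chromosome 6, 135362545 to 135383173, plus strand) encodes an epithelial membrane protein of the Pmp22 family, and Wincr1 (ENSMUSG00000085183, chromosome 4, 89050308 to 89084614, plus strand) gives a long non-coding RNA named for its induction by Wnt. Sprr and Ly6 genes have close relatives, and whether the counting split reads between them was not tested.

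Depth and cell make-up differed between mice, which bears on every value by mouse. The gene library held 142080194 UMIs in 13151 barcodes, of which 13141 were also in the hashtag library. HTODemux assigned 456, 1400 and 422 hepatocytes to hashtags 1, 2 and 3, with medians of 10166, 40130.5 and 2393.5 UMIs, and left 6108 hepatocytes without a tag. Markers of other cell types in hepatocytes at low Nras differed too, in CPM (counts per 1000000 UMIs, with Nras and mVenus left out of the total). The summed endothelial markers (9 genes) came to 3556 CPM for hashtag 3, against 166 and 37.6 for hashtags 1 and 2. Conventional dendritic markers (9 genes) were highest for hashtag 1, at 2310 CPM against 302 and 943 for hashtags 2 and 3. Neutrophil markers (6 genes) were at 99.0, 15.1 and 117 CPM for hashtags 1, 2 and 3. A fixed rule on tag counts never gave a barcode to a different hashtag, but it left 933 of the 1400 hashtag 2 hepatocytes uncalled and called 1109 untagged ones for hashtag 1.

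Nras and mVenus measured the transgene. The mouse Nras row counted reads of the construct together with the endogenous gene, and each hepatocyte was placed by its Nras level in CPM, over the same total of its other UMIs. Hepatocytes under 500 Nras CPM were called baseline (7443 cells), those at 500 to 2000 middle (799 cells), and those at 2000 or more high (268 cells). In hepatocytes with 10000 or more UMIs, the mVenus level was 7.02 CPM under 250 Nras CPM and 445 CPM at 4000 or more, so the reporter and Nras ordered the classes alike. Across all 8510 hepatocytes depth moved with the class, with medians of 3673, 2664 and 42728 UMIs in baseline, middle and high cells, which is why levels along Nras are given for the 2306 hepatocytes of 10000 or more UMIs. Their medians lay between 35839 and 62867 UMIs in the 6 Nras classes.

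Markers of the labelled cell type and of other types were summed by class. Of the 12 hepatocyte markers, 5 are the gate genes that defined these cells. A high hepatocyte sum was therefore fixed by the gate and does not test the label. All 12 hepatocyte markers were found in every class, with a summed level of 88503 CPM in baseline, 63502 CPM in middle and 52404 CPM in high cells. The 7 keratinocyte and mesothelial markers summed to 0.832 CPM in high cells, and Krt5, Krt14, Trp63, Upk3b and Wt1 had 0 UMIs there. The 7 cholangiocyte markers summed to 3435 CPM in baseline and 16161 CPM in high cells, of which Spp1, an osteopontin gene also expressed by injured hepatocytes, made up 16005 CPM. Of the other bile duct markers, Sox9 was at 70.4 CPM in baseline and 147 CPM in high cells and Epcam at 1.57 and 5.73 CPM. In high cells Krt19 was at 0.185 CPM (2 UMIs), Krt7 at 0.277 CPM (3 UMIs) and Cftr at 0 UMIs. The summed endothelial markers were at 118 CPM in baseline and 18.9 CPM in high cells. Of the hepatocytes past the gate, 477 fell in clusters named for another cell type. How far these cells enter the levels was not tested, except that the median log2 ratio of the 7 genes was 3.33 without them and 3.34 with them.

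Sprr1a showed a steady order along Nras. In hepatocytes of 10000 or more UMIs its level was 124, 318, 608.5, 957, 1085 and 1751 CPM in the classes under 250, 250 to 500, 500 to 1000, 1000 to 2000, 2000 to 4000 and 4000 or more Nras CPM. Each of these 6 values lay outside the exact 95% Poisson intervals of its neighbours, which cover counting error only. Below 250 the order went on, at 91.6 CPM under 50 (830 cells), 120.5 CPM from 50 to 100 (432 cells) and 187 CPM from 100 to 250 (405 cells).

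Ivl, the other envelope scaffold gene of the complex with a broad signal, followed the same order at a lower count. Its level was 3.31, 15.2, 26.4, 36.0, 41.8 and 58.7 CPM over the 6 classes. The intervals from 1000 to 2000 Nras CPM (31.8 to 40.7 CPM) and from 2000 to 4000 (36.4 to 47.7 CPM) overlapped, so those neighbours could not be told apart at this depth.

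Crct1 behaved differently from both neighbours in the complex. It was at 1.46 CPM under 250 Nras CPM, between 10.6 and 22.4 CPM in the next 4 classes with no steady order, and at 125 CPM at 4000 or more. Few cells carried these values: 1 cell held 77.2% of the Crct1 UMIs from 250 to 500, and 1 cell held 91.9% of them from 1000 to 2000. In the top class the largest contributor held 29.1%, and 16 of every 100 cells had a UMI.

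Ly6d reached its plateau early. It was at 827 CPM under 250 and 1796 CPM from 250 to 500 Nras CPM, and then at 2024, 1866, 1937 and 1855 CPM in the 4 classes above. The top class (1818 to 1892 CPM by counting interval) was not above the class from 500 to 1000. Ly6k, its neighbour on chromosome 15, was at 3.54, 15.9, 7.57, 13.5, 9.11 and 35.0 CPM, with 27.9% to 48.2% of its UMIs from 1 cell in each class from 250 upwards. No order could be read between the Ly6k classes from 250 to 4000.

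Emp1 was at 4.63, 17.2, 18.1, 32.0, 38.7 and 65.6 CPM over the same classes, with overlapping intervals in the classes from 250 to 1000 and again in those from 1000 to 4000. Wincr1 was at 20.5, 84.4, 121, 172, 182 and 207 CPM. The long non-coding RNA thus gained most of its range below 2000 Nras CPM, and its intervals from 1000 to 2000 and from 2000 to 4000 overlapped.

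**Figure D1:**
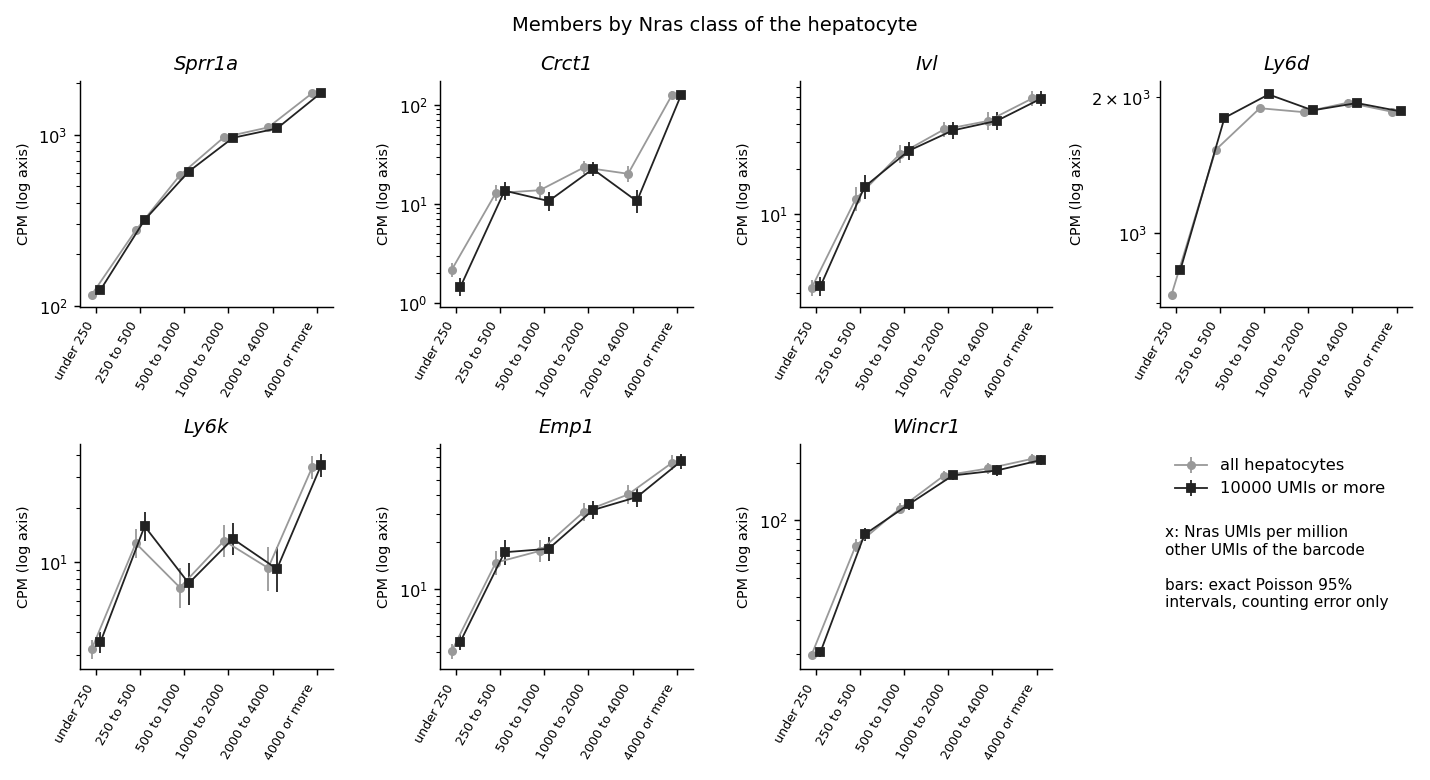
CPM of each gene (log axis) against the Nras class of the hepatocyte, in CPM over its other UMIs, for all hepatocytes (grey circles) and for those of 10000 or more UMIs (black squares), with exact 95% Poisson intervals. Sprr1a climbs from 124 to 1751 CPM through all 6 classes of the deep cells, Ly6d is level at 1796 to 2024 CPM from the second class on, and Crct1 jumps to 125 CPM in the last class.

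The size of the difference between Nras-high and baseline cells varied widely between the 7 genes. Over all hepatocytes Crct1 was 22.2-fold higher (19.4 to 25.5, 95% interval for counting error), Ivl 11.9-fold, Sprr1a 10.7-fold, Emp1 10.1-fold, Wincr1 7.75-fold, Ly6k 5.11-fold and Ly6d 2.33-fold (2.30 to 2.37). On the log2 scale the median of the 7 ratios was 3.34. The Crct1 log2 ratio was 4.47 over all hepatocytes, 2.04 in cells assigned by the fixed hashtag rule and 3.20 in cells split by mVenus. Since these ratios chose the genes, they are given without a test, and the Nras-high and baseline cells come from the same mice and the same run.

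Levels by mouse come from sums over the cells of each hashtag. For hashtags 1, 2 and 3 there were 377, 1128 and 382 baseline cells and 33, 104 and 3 Nras-high cells. The 3 cells of hashtag 3 held 104027 UMIs, so its high values are those of 3 cells. Of all genes tested along this contrast 7.05% were called higher, and nothing is read from that share here, since the contrast chose the 7 genes. That share does not count genes whose values by mouse do not overlap between classes. The share of all genes without such overlap is not given, so no separation described below sets these genes apart.

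Sprr1a in baseline cells was at 146, 128 and 77.7 CPM for hashtags 1, 2 and 3, and in Nras-high cells at 1141, 1249 and 1759 CPM. The lowest high value was above the highest baseline value, and the 3 mice did not overlap between classes. In the middle class, hashtags 1 and 2 stood at 833 and 777 CPM while hashtag 3 stood at 93.0 CPM in 37 cells, near its own baseline. Hepatocytes of hashtag 3 had a median of 2393.5 UMIs, so few Nras UMIs could place a cell in this class. Whether its middle cells carried more transgene than its baseline cells was not tested.

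Ivl was at 2.61 and 5.14 CPM in baseline cells of hashtags 1 and 2 and at 42.03 and 49.3 CPM in their Nras-high cells. Hashtag 3 gave 1 UMI in each class, too few for a comparison. Crct1 was at 1.89 and 2.39 CPM in baseline cells of hashtags 1 and 2 and at 9.21 CPM (16 UMIs) and 56.3 CPM in their Nras-high cells. The Crct1 ratio was 4.88-fold (2.20 to 11.03) for hashtag 1 and 23.5-fold (18.7 to 29.9) for hashtag 2, intervals that cover counting error only. A single cell held 68.8% of the high UMIs of hashtag 1, 52.4% of those of hashtag 2 and 83.0% of the baseline UMIs of hashtag 2. Hashtag 3 had 0 Crct1 UMIs in its high cells, which allows up to 35.5 CPM.

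Ly6d was at 859, 869 and 658 CPM in baseline cells of hashtags 1, 2 and 3 and at 1324, 1782 and 2297 CPM in their Nras-high cells. The classes did not overlap between mice, but in hashtag 1 the middle class was at 2528 CPM, above its own high class. Ly6k was at 0.726 CPM (5 UMIs) and 6.47 CPM in baseline cells of hashtags 1 and 2 and at 6.91 CPM (12 UMIs) and 28.2 CPM in their high cells. The baseline value of hashtag 2 and the high value of hashtag 1 are nearly the same, so for Ly6k the difference between these mice was as large as the difference between classes. Hashtag 3 had 0 Ly6k UMIs in both classes.

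Emp1 was at 3.48, 6.42 and 3.08 CPM in baseline cells of hashtags 1, 2 and 3 and at 54.7, 48.4 and 96.1 CPM in Nras-high cells, where the value of hashtag 3 was 10 UMIs in 1 cell. Wincr1 was at 28.3, 22.6 and 16.6 CPM in baseline cells and at 206, 189 and 327 CPM in Nras-high cells. For both genes every high value exceeded every baseline value. The 5556 baseline and 128 Nras-high hepatocytes without a single hashtag gave values of the same order, for example 139 and 1905 CPM of Sprr1a.

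**Figure D2:**
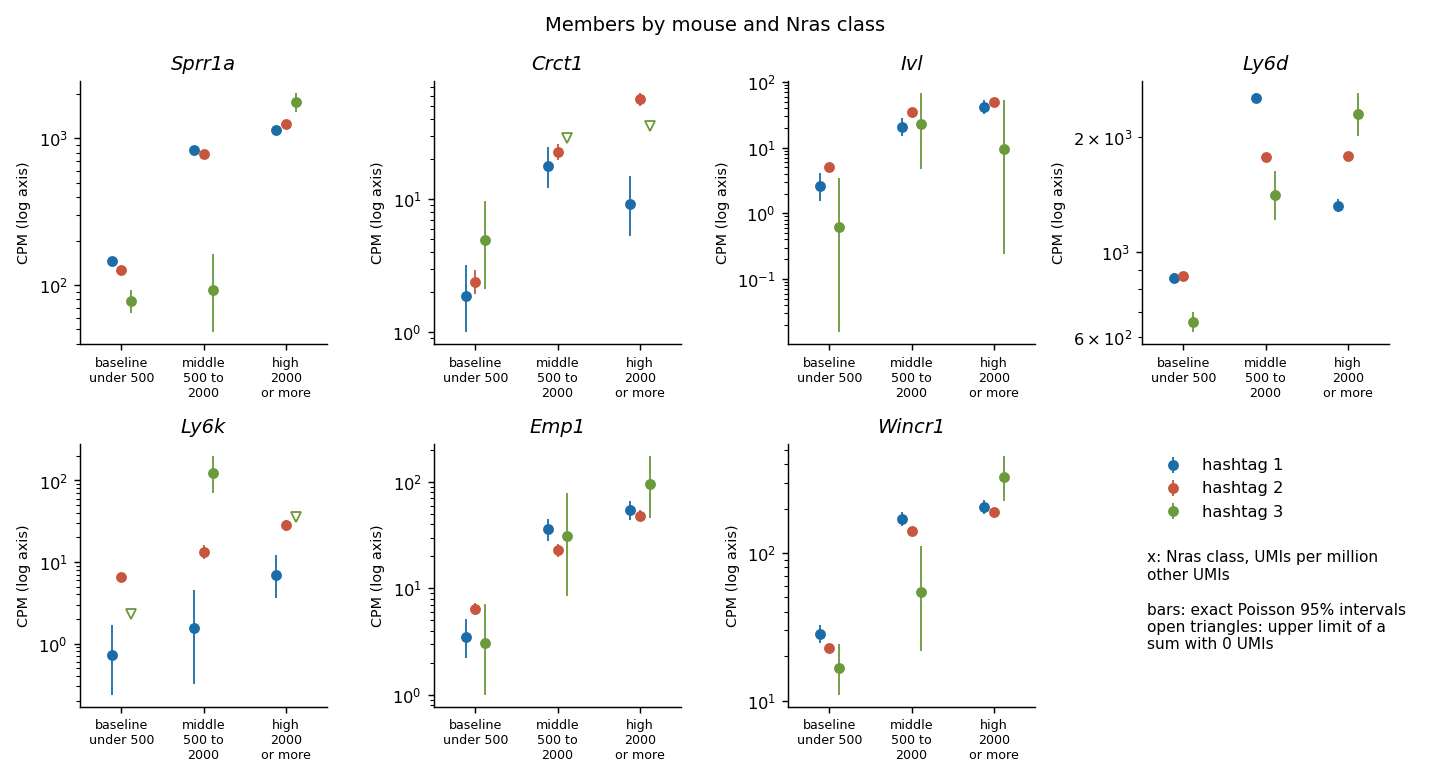
CPM of each gene (log axis) by Nras class for hashtags 1, 2 and 3, with exact 95% Poisson intervals, and open triangles for the upper limit of a sum with 0 UMIs. Sprr1a lies at 77.7 to 146 CPM in the baseline sums and at 1141 to 1759 CPM in the high sums. In the middle class hashtag 3, whose cells were shallow, is at 93.0 CPM.

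How many cells carried each RNA was compared after thinning every hepatocyte to 5000 UMIs at random, because deeper cells show more genes. This left out 5066 shallower hepatocytes (4530 baseline, 488 middle and 48 high) and kept 2913, 311 and 220, with medians of 18479, 50679 and 50475.5 UMIs before thinning. Sprr1a was found in 19.1% of baseline cells (exact 95% interval 17.7 to 20.6) and in 78.2% of Nras-high cells (72.1 to 83.5). Ly6d was found in 49.2% and 83.2%, and Wincr1 in 7.35% and 57.3%. The less abundant RNAs stayed in a minority of high cells, with Emp1 in 1.54% and 15%, Ivl in 1.51% and 12.7%, Crct1 in 0.652% and 6.36%, and Ly6k in 0.927% and 3.64%.

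Free RNA can place UMIs in cells that do not make a gene, so the same shares were taken in other cell types. In the conventional dendritic-like cluster, 773 cells kept at 5000 UMIs (median 10403), Sprr1a was found in 9.06%, Ly6d in 18.8% and Wincr1 in 1.81%. In the endothelial-like cluster, 188 cells (median 6998.5), these shares were 4.26%, 22.3% and 1.60%. The shares in baseline hepatocytes lay above both for the 3 genes. For Emp1 the baseline share lay below the 2.13% of endothelial-like cells, and the baseline shares of Crct1 and Ivl had intervals that overlapped those of at least 1 of the 2 clusters, so these 3 shares cannot be told apart from background. Ly6k was found in 0 of 773 dendritic-like cells (up to 0.476%) and in 0 of 188 endothelial-like cells (up to 1.94%). The endothelial-like interval holds the baseline Ly6k share given above, so that share cannot be told apart from background either. Ly6d was not low in every other cell type. Without thinning it was at 1170 CPM in the B cell-like cluster, in 84.8% of its 92 barcodes, and at 497 CPM in the macrophage-like cluster. Whether these cells were a source of free Ly6d RNA was not tested.

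**Figure D3:**
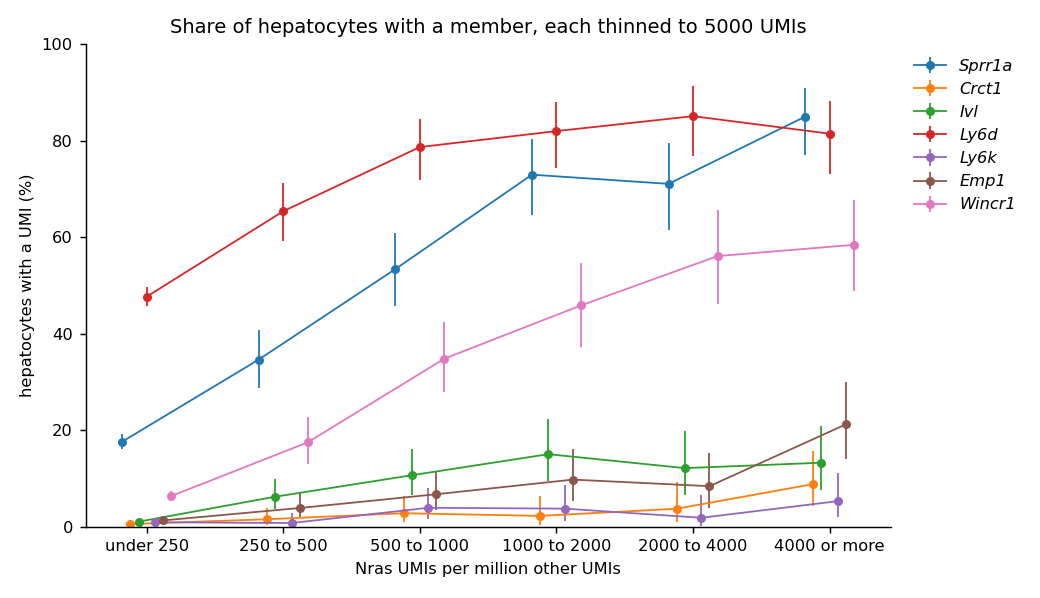
Percent of hepatocytes with at least 1 UMI of each gene against Nras class, every cell thinned to 5000 UMIs, with exact 95% binomial intervals. Sprr1a goes from 17.6% under 250 Nras CPM to 85.0% at 4000 or more and Wincr1 from 6.36% to 58.4%, while Crct1 stays at or below 8.85% in every class.

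Single cells combined the 7 RNAs in a graded way. After thinning, 3 or more of the 7 were found in 5.53% of baseline cells (4.73 to 6.42), 40.8% of middle cells and 56.4% of Nras-high cells (49.5 to 63.0). Only 6 of the 220 high cells had none. Among the 195 Nras-high cells of 10000 or more UMIs, not thinned, 8 had 1 of the 7 genes, 14 had 2, 33 had 3, 74 had 4, 49 had 5, 16 had 6 and 1 had all 7, whereas 277 of the 1839 baseline cells at that depth had none.

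All 21 pairs of the 7 genes were found together in more thinned hepatocytes than the product of their shares gives. Sprr1a and Wincr1 shared 343 of 3444 thinned hepatocytes, 2.77 times the count expected from their shares. When the expected count was built within each Nras class, which takes out the part that both genes share with Nras in these 6 classes, the ratio was 1.55. Sprr1a and Ly6d shared 731 cells, at 1.46 times expectation overall and 1.26 within classes. Of the 111 cells with Ivl, 102 had Ly6d, and of the 41 cells with Crct1, 34 had Sprr1a. Within classes the ratio was under 1 for Crct1 and Ly6k only, at 0.920 with 1 shared cell. The median over the 21 pairs was 1.45 within classes, and among Nras-high cells alone it was 1.02. Cells of 1 library share their free RNA and their depth before thinning, and these ratios carry no test. The 115 hepatocyte barcodes marked as doublets between mice were not removed beforehand, and the part of doublets in these ratios was not tested.

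Crct1 and Emp1 formed the pair farthest from expectation, with 9 shared cells, 7.34 times the overall and 2.61 times the within-class expectation. In hepatocytes with at least 10 UMIs of a gene, a split chosen after the values were seen, 7 of the 24 such Crct1 cells also had 10 or more Emp1 UMIs. Of the same 24, 7 had an Ivl UMI and 0 had 10 or more. In all hepatocytes without thinning, Crct1 and Ivl shared 35 cells, 6.08 times the overall and 1.65 times the within-class expectation. The 5 hepatocytes with most Crct1 held 190, 175, 147, 132 and 78 Crct1 UMIs and 0 Ivl UMIs each. The 5 with most Ivl held 32, 25, 25, 24 and 24 Ivl UMIs and 0 Crct1 UMIs. All 26 cells with 10 or more Emp1 UMIs and 29 of the 30 such Ivl cells sat in cluster 1, as did 15 of the 24 such Crct1 cells, of which another 8 sat in cluster 8.

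Among barcodes with much Nras the 7 genes differed in direction along hepatocyte gene content. Barcodes of 10000 or more UMIs and 1000 or more Nras CPM were divided by their share of the 5 gate genes, without applying the gate, into those under 1% (28 barcodes), 1 to 2% (63), 2 to 5% (150) and 5% or more (103). Ly6d was at 315, 741, 1612 and 2889 CPM in this order. Emp1 ran the other way, at 222, 120, 33.1 and 16 CPM. Wincr1 also ran down, at 338, 273, 218 and 92.9 CPM.

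Ivl and Ly6k went with Ly6d, at 8.08, 24.2, 50.1 and 48.2 CPM for Ivl and 2.94 (4 UMIs), 13.9, 14.2 and 27.0 CPM for Ly6k. Crct1 was at 95.5 and 159 CPM in the 2 classes with the least hepatocyte RNA and at 18.5 and 29.9 CPM in the others. Sprr1a had no single direction, at 1065, 1483, 1369 and 903 CPM. The Nras level itself was 6654, 4607, 3334 and 3825 CPM, so Nras and the share of hepatocyte genes were not independent.

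Both mice with enough cells showed these directions for Ly6d, Emp1 and Wincr1 from the first to the last class. Between the lowest and the highest share, hashtag 1 (4, 11, 22 and 14 barcodes) went from 276 to 2400 CPM of Ly6d and from 345 to 9.28 CPM of Emp1. Hashtag 2 (13, 31, 77 and 57 barcodes) went from 378 to 2637 CPM of Ly6d and from 197 to 15.02 CPM of Emp1. Wincr1 was at 314, 367, 191 and 96.3 CPM for hashtag 1, where it rose before it fell, and at 259, 245, 229 and 92.6 CPM for hashtag 2. Sprr1a was at 1878, 1746, 1012 and 810 CPM for hashtag 1 and at 535, 1528, 1246 and 748 CPM for hashtag 2. The gate defines this axis by hepatocyte RNA only, and in barcodes just outside it (0.5 to 1%, 617 barcodes) and just inside it (1 to 1.5%, 995 barcodes) at any Nras level Sprr1a was at 456 and 628 CPM, Ly6d at 285 and 346 CPM, Wincr1 at 76.5 and 113 CPM and Emp1 at 27.99 and 48.6 CPM. Crct1 was at 56.9 and 50.98 CPM there, Ly6k at 10.1 and 6.24 CPM and Ivl at 7.27 and 8.45 CPM.

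**Figure D4:**
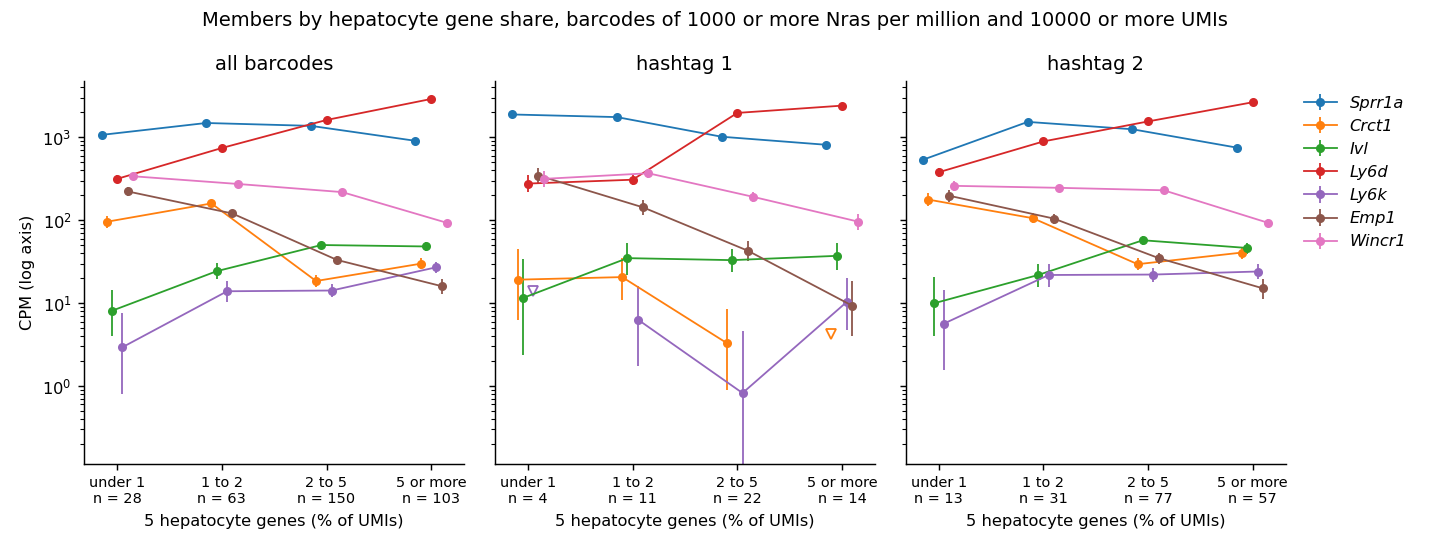
CPM of each gene (log axis) against the share of UMIs from the 5 hepatocyte gate genes, for all barcodes of 1000 or more Nras CPM and 10000 or more UMIs and for those of hashtags 1 and 2, with exact 95% Poisson intervals and open triangles for upper limits. Ly6d goes from 315 to 2889 CPM and Emp1 from 222 to 16 CPM across the 4 classes, and the 2 mice repeat both directions.

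Expression clusters, made without the 7 genes and without the construct rows, separated where the RNAs were found. Cluster 1 (1193 barcodes, led by Hmga2, Sox4, Igfbp3 and S100a6, and given no cell type name) held 167 of the 268 Nras-high hepatocytes. There Sprr1a was at 287, 922 and 1567 CPM in baseline, middle and high cells and Wincr1 at 55.0, 174 and 208 CPM. Cluster 8 (872 barcodes, hepatocyte-like, led by Slpi, Trdc and Gsta1 among others) held 65 Nras-high hepatocytes, with Sprr1a at 431, 1813 and 1873 CPM and Crct1 at 22.1, 77.0 and 211 CPM.

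Cluster 0 (933 barcodes, hepatocyte-like, led by Meg3, Fgg and Serpina3k) held these RNAs at other levels. In its 863 baseline, 54 middle and 16 high cells Sprr1a was at 27.4, 48.9 and 29.97 CPM and Wincr1 at 3.63, 5.39 and 4.995 CPM. Ly6d in the same cells was at 586, 1534 and 2612 CPM, and Ly6k at 4.67, 10.8 and 48.9 CPM. Nras was at 4191 CPM in those 16 cells, against 5511 in the high cells of cluster 1. The 49 Ly6k UMIs of the high cells came from 12.5% of them, and 1 cell held 40. Ivl had 4 UMIs and Emp1 6 UMIs in the 16 cells, and Crct1 had 0 UMIs, which allows up to 3.69 CPM. The hepatocyte-like cluster 9 had Sprr1a at 29.4 CPM in baseline and 24.4 CPM in its 251 middle cells, and Wincr1 at 10.6 and 6.65 CPM (3 UMIs). Those 251 cells had a median of 1645 UMIs and 358 Nras UMIs in all, so few Nras UMIs put each in its class. In cluster 5, with 7 high cells, Ly6d was at 132, 551 and 2417 CPM and Wincr1 at 3.99 CPM in baseline with 0 UMIs in middle and high cells.

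Other genes of the squamous programme were tested in sums per mouse and Nras class with edgeR's quasi-likelihood test, the mouse as a block, and Benjamini-Hochberg adjustment over the 11065 genes tested. The fit had 5 sums and 1 residual degree of freedom, since the 3 high cells of hashtag 3 were too few to enter, so the effect rested on hashtags 1 and 2. It called 16.5% of the genes, 7.05% higher and 9.41% lower in Nras-high cells. Of 246 listed genes, 87 were tested, 32 were higher and 12 were lower. The lists were chosen with earlier results of these data known. Their counts are therefore a description beside the shares of all genes, and no list is tested as a set. The values that follow are for hashtag 1 and then hashtag 2.

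Of the 45 other envelope precursors of the complex in the count table, 40 had 0 UMIs in the 5 sums and 2 passed the filter on low counts. Lor, which encodes loricrin, the main envelope protein of the epidermis, was higher, from 4.21 to 19.0 CPM and from 6.72 to 19.2 CPM (log2 fold change 1.74 ± 0.25 SE, adjusted p = 0.00354). Lor passed in 8 of 12 alternatives, and not without the mouse block, at a gate of 5%, with DESeq2 or with hashtags 2 and 3. Tchh, a hair follicle sheath protein gene, did not pass (1.37 ± 0.64, adjusted p = 0.206). The median log2 fold change of the 2 was 1.55, against -0.03 over all genes tested.

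The S100 genes, calcium-binding proteins encoded in the same complex, were more widely expressed, with 9 of 14 tested, 4 higher and 2 lower. S100a6 went from 1294 to 8187 CPM and from 1489 to 7911 CPM (2.55 ± 0.18, adjusted p = 2.07e-04). S100a11, itself an envelope component, went from 383 to 1283 CPM and from 324 to 1160 CPM (1.81 ± 0.16, adjusted p = 4.46e-04). S100a4 (2.59) was also higher, at 6.24 CPM or less. The lower ones, S100a8 and S100a9, are neutrophil genes, and S100a9 went from 66.4 and 9.32 CPM to 0 UMIs in both mice, beside summed neutrophil markers of 20.01 CPM in baseline and 1.94 CPM in high hepatocytes. The part of neutrophil RNA in these calls was not tested.

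Of the enzymes and scaffolds that cross-link the envelope, 6 of 24 were tested. Tgm1, the transglutaminase of keratinocytes, was at 2.76 and 1.15 CPM and at 1.68 and 0.843 CPM (-1.07 ± 0.63, adjusted p = 0.311). Tgm2, the tissue transglutaminase, was lower (-1.08, adjusted p = 0.0109), as was Eppk1, a plakin cytolinker (-2.96, adjusted p = 0.0229). The serpin genes Serpinb5 (4.64 ± 0.88, adjusted p = 0.0105) and Serpinb12 (4.52 ± 1.20, adjusted p = 0.0410) were higher from very low counts, and Serpinb12 had 0 UMIs in the baseline sum of hashtag 2, so its fold is not a firm size.

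Of 24 keratins, 12 had 0 UMIs in the sums and 5 were tested. The simple-epithelial pair of hepatocytes was higher, Krt8 from 687 to 2514 CPM and from 770 to 2413 CPM (1.78 ± 0.17, adjusted p = 6.34e-04) and Krt18 from 1026 to 3625 CPM and from 1153 to 3888 CPM (1.81 ± 0.16, adjusted p = 5.05e-04). Krt23 (3.07, adjusted p = 2.92e-04) and Krt20 (2.52, adjusted p = 0.00152), a gut and umbrella cell keratin, were higher too, while Krt10 of the suprabasal epidermis did not pass (0.20 ± 0.23). None of the 4 keratins that were higher is a keratin of the cornifying layers.

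Junction genes moved both ways, with 3 higher and 3 lower of 11 tested. Perp, a desmosome-linked tetraspan gene, was higher, from 45.0 to 71.97 CPM and from 51.5 to 83.0 CPM (0.70 ± 0.14, adjusted p = 0.0139). Gjb2, a connexin gene of hepatocytes and skin alike, was lower (-1.93, adjusted p = 0.0114), as were Dsc2, a desmosomal cadherin gene (-1.65), and Cldn1, a tight-junction gene (-1.53).

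In the families of the 7 genes, 7 of 24 other Ly6 and uPAR family genes were tested. Plaur, the urokinase receptor gene, was higher, from 12.8 to 87.5 CPM and from 13.4 to 116 CPM (2.99 ± 0.15, adjusted p = 1.57e-04). Gpihbp1 was lower (-3.07, adjusted p = 0.00743), and it is an endothelial gene whose baseline level was 21.3 CPM in hashtag 1 and 2.85 CPM in hashtag 2, beside the endothelial marker sums given above. Ly6e, the broadly expressed Ly6 gene, was at 391 and 404 CPM and at 378 and 450 CPM (0.17 ± 0.15, adjusted p = 0.523). All 3 tested relatives of Emp1 were higher, Emp3 by 1.76, Perp by 0.70 and Emp2 by 0.61 on the log2 scale. Emp3 passed in 11 of 12 alternatives, Perp in 9 and Emp2 in 6.

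Of 10 tested regulators of squamous differentiation 1 was higher and 4 were lower, with a median log2 fold change of -1.20 against -0.03 over all genes tested. Klf5, a Krüppel-like factor of epithelial progenitors, was higher, from 4.79 to 32.8 CPM and from 4.202 to 22.6 CPM (2.57 ± 0.22, adjusted p = 4.45e-04). Cebpa (-1.26), a hepatocyte and keratinocyte factor, Hopx (-1.15) and Maf (-2.60) were among the 4 that were lower, and Klf4 was at 32.7 and 50.7 CPM and at 41.4 and 56.0 CPM (0.53 ± 0.15, adjusted p = 0.0504).

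Of 11 tested genes listed as AP-1 subunits, which include Atf3, Batf3, Maff and Mafk beside FOS and JUN genes, 3 were higher and none was lower. Whether any of them acts on the promoters printed above was not tested. Fosl1, which encodes FRA1, went from 1.74 to 31.7 CPM and from 4.13 to 33.1 CPM (3.34 ± 0.30, adjusted p = 4.85e-04). Fosl2 (0.98, adjusted p = 0.0228) and Maff (0.58, adjusted p = 0.0401) were higher by less. Fosl1 passed in 11 of 12 alternatives, and Fosl2 and Maff in 7 each. Fos (-0.16 ± 0.20), Jun (-0.13 ± 0.19) and Junb (0.01 ± 0.20) did not pass.

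Of 18 tested ERK output genes, 9 were higher and none was lower. Beside Fosl1, the largest changes among those that passed were in Ier3 (2.08), an immediate-early gene, Etv4 (2.04), an ETS factor, Spry2 (1.89), a feedback inhibitor of the pathway, and Epha2 (1.44), an ephrin receptor gene. Egr1 was at 157 and 222 CPM and at 255 and 213 CPM (0.13 ± 0.22, adjusted p = 0.766), so not every ERK output gene followed.

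Chromosomal neighbours of the 7 genes were mostly silent, and 36 of the 51 listed ones had 0 UMIs in the sums. Of 9 tested, 3 were higher. Gml2, a Ly6 family gene 18.973 kb from Ly6k, was at 0.581 and 2.88 CPM and at 0.127 and 2.53 CPM (3.47 ± 0.88, adjusted p = 0.0342), while Ly6e, 155.057 kb from Ly6k on the same side, and Lynx1, 9.077 kb from Ly6d on the other, did not pass. On chromosome 4, Mtap, 52.76 kb from Wincr1, went from 32.1 to 72.0 CPM and from 38.7 to 81.0 CPM (1.12 ± 0.14, adjusted p = 0.00216). Cdkn2b, the p15 cell-cycle inhibitor gene 221.679 kb from Wincr1, went from 88.7 to 382 CPM and from 98.4 to 371 CPM (2.02 ± 0.16, adjusted p = 3.44e-04). None of the 10 nearest neighbours of Crct1 passed the filter on low counts, and of those of Sprr1a and Ivl only Gm9774 did, which was not called.

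**Figure D5:**
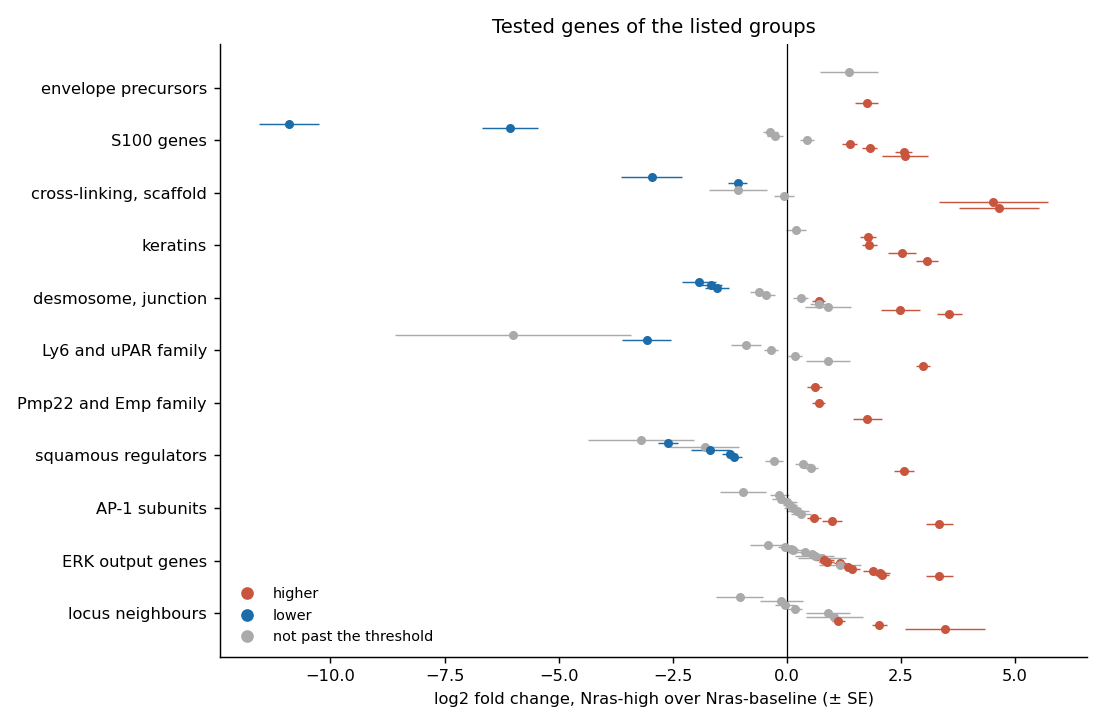
Log2 fold change of Nras-high over baseline hepatocytes (edgeR, ± SE taken from the F statistic) for every tested gene of 11 lists. Red is for higher, blue for lower and grey for genes not past an adjusted p of 0.05. ERK output genes and keratins have calls on the higher side only, junction genes have 3 on each side, and the point farthest left is S100a9, whose value is a fitted one from 0 UMIs in both high sums and no bound.

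These calls depended on the mouse block and on the gate. Without the block 9 listed genes were higher and 0 lower, with 3263 of all genes at an unadjusted p under 0.05 in the blocked fit and 2412 in the unblocked one. At a gate of 5% there were 12 higher and 0 lower.

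Genes with a pattern like the 7 were sought over 20 equal ranks of Nras in the 2306 deep hepatocytes, by Pearson correlation of log2(CPM + 1) with the sum of the 7. Among 7542 genes at 10 CPM or more in a rank, the closest were Itgav (r = 0.981), an integrin subunit gene, then Ehd4, Chic2, Wdr1, Anxa2, Arpc1b, Spp1, Tnfrsf12a, Igfbp3 and S100a11 (r = 0.970). Anxa2, which encodes annexin A2, was at 215 CPM in the lowest and 1311 CPM in the highest rank. The ranks share 1 library and differ in depth, the sum is mostly Ly6d and Sprr1a, and r is a description. Among the 7 themselves r over the ranks ran from 0.61 for Ly6d and Ly6k, the closest neighbours on a chromosome, to 0.96 for Sprr1a and Wincr1, which lie on different chromosomes.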

How the data were processed

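The authors aligned 10x Genomics 3′ v3 reads to mm10 with Cell Ranger (2.1.1 in the processing notes, 3.0.2 in the matrix header) and counted hashtags with CITE-seq-Count. The deposited values were raw UMI counts per gene and per hashtag in each barcode, not normalised. The 7 genes and the lists were chosen with earlier results of these data known. Barcodes with 500 or more genes, 1000 or more UMIs and under 20% mitochondrial UMIs were kept. Hashtags were called with HTODemux (Seurat 5.3.0, quantile 0.99), which also marks doublets between mice (271 barcodes), and doublets within a mouse were not called. Marked doublets were kept in the values over all hepatocytes and were absent from those by hashtag. Clusters came from scanpy 1.11.5 (2000 variable genes, 30 components, 15 neighbours, Leiden resolution 0.5) and were named from marker lists. Raw counts were summed per hashtag and Nras class, with 5 or more cells a sum, and tested with edgeR 4.0.16 (filterByExpr, TMM, quasi-likelihood, Benjamini-Hochberg, threshold 0.05) with the hashtag as a block, since sums of 1 hashtag come from the same mouse. DESeq2 1.42.0, R 4.3.3, Python 3.11.15, scipy 1.17.1 and numpy 2.4.6 served the alternatives and counts. The fit was first tested on simulated data. The SE of a log2 fold change is that change, without its sign, divided by the square root of the test's F statistic. The quasi-likelihood test itself gives no SE. Named genes outside the 7 are the listed genes past the threshold, at most 5 a list by size of change where both mice agree in sign, and the 10 closest by correlation, and other genes named were picked after their values were seen. Some genes that the rule names are not reported here. Hashtag totals were 10550150, 54045271 and 1854792 UMIs in hepatocytes. Intervals are exact (Poisson or Clopper-Pearson, 95%) and cover counting error only. Alternatives, of which 4 were added after seeing the data, are described at the end.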

Additional observations from a re-analysis of the deposited data

Results flagged for a closer look

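A total of 31 barcodes with an Nras level of 2000 CPM or more stayed below the hepatocyte gate. Of these, 18 were in cluster 1, 10 in cluster 8 and 3 in cluster 7. They took no part in the comparisons of gated hepatocytes. The deeper ones among them did enter the lowest class of the split by share of the gate genes. The values that follow are therefore not separate from that split. The 31 barcodes were listed because 6 of the 7 RNAs lay above the level of the 1604 baseline barcodes below the gate. Sprr1a was at 1073 CPM against 103.6 CPM in those baseline barcodes. Crct1 was at 189 CPM against 14.7 CPM. Ivl was at 8.37 CPM (10 UMIs) against 1.04 CPM. Ly6d was at 347 CPM against 118 CPM. Emp1 was at 234 CPM against 8.85 CPM, and Wincr1 at 352 CPM against 13.2 CPM. Ly6k had 4 UMIs there (3.35 CPM) and was not above the 4.55 CPM of the baseline barcodes. With 3 mice, no group was large enough to look for a mouse far from the others, and the differences between the 2 mice with enough cells were not tested.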

How the results depend on the processing

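Across all tested genes 780 were higher and 1041 lower. They were 247 and 441 with DESeq2, 114 and 100 with no replicate block, 140 and 194 at a gate of 5%, and 204 and 537 from sums of at least 1 cell of hashtags 2 and 3, the G12V mice of the deposited table. Of the listed genes, 32 higher and 12 lower as reported, these settings left 20 and 5, 9 and 0, 12 and 0, and 20 and 10. The other 7 settings kept both counts within 1.5 times, and leaving out hashtag 3 gave 777 higher and 1018 lower genes, with 32 and 12 listed. Leaving out hashtag 1 or 2 left no residual degrees of freedom, so no test was made. Of 48 named genes outside the 7, all kept their direction, 8 passed in every alternative that tested them (among them Anxa2, Ier3, Igfbp3, Krt23, Plaur, S100a11 and S100a6), 11 passed without the block, 18 at the gate of 5%, 30 with DESeq2 and 32 with hashtags 2 and 3. The median log2 ratio of the 7 genes, 3.34, was 3.25 at a gate of 5%, 3.12 at 10000 or more UMIs, 2.97 by the fixed hashtag rule, 3.101 with HTODemux calls only and 2.90 when cells were split by mVenus. The share of Nras-high cells with 3 or more of the 7, 56.4%, was 29.5% thinned to 2000 UMIs, 79.1% not thinned and 45.3% at a gate of 5%. The median co-detection within classes, 1.45, was 1.82 not thinned and 1.02 within Nras-high cells. Of the 10 genes closest by correlation, 1 remained with hepatocytes of 5000 or more UMIs. The causes were not tested, except that thinning fewer UMIs or none sets how many RNAs a cell can show. The sums of at least 1 cell, hashtags 2 and 3 alone, HTODemux calls only and leaving out clusters of other cell types were chosen after seeing the data.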
